A study of Mus musculus with 2 samples.

Results

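The kinesin superfamily comprises motor proteins that move along microtubules or take them apart, and its genes are described here across germ and somatic cells of the adult mouse testis. Members were the genes whose symbol is Kif followed by a number and, where present, a letter and a further digit, which gave 36 of the 20476 genes in the table. Genes of the superfamily with other names, such as Cenpe and the Kifc genes, are not members and are given among partner genes. The C57BL/CJ;ICR mice were adult and of genotype WT or miR-202-/- (no functional miR-202, a microRNA), and total testicular cells of each genotype gave 1 droplet library of 3′ transcript ends. All barcodes stand in 1 table, in which barcode names end in 1 or 2, here called marks. Which mark belongs to which genotype is not given in the labels or the table, so wild type was not compared with knockout. The number of animals behind each library is likewise not stated. Each value below is given for mark 1 and then for mark 2. The 2 marks do not replicate a condition, the classes come from 1 pool of cells, and no test between classes was therefore made.

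A kinesin couples a motor domain, which binds microtubules and hydrolyses ATP, to a tail that selects cargo, a spindle site or a partner subunit. Most members walk toward the plus end of the microtubule, whereas kinesin-13 members shorten microtubules at their ends. In the testis, kinesins serve the mitotic spindle of spermatogonia, both meiotic spindles of spermatocytes, and the manchette and flagellum that shape the spermatid. The manchette is a transient skirt of microtubules around the elongating spermatid nucleus.

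The table held 28245 barcodes, 12935 under mark 1 and 15310 under mark 2, with a median of 6061 and 5509 UMIs (unique molecular identifiers, which count captured transcripts). Barcodes were placed in classes by marker gates that contained no kinesin gene, and 12538 passed exactly 1 gate, 278 passed more than 1 and were left out, and 15429 (54.6%) passed none. The germ classes held between 366 and 3974 barcodes each over both marks, the Sertoli gate 844, and the Leydig, macrophage, T or NK and stromal gates between 65 and 93. The endothelial gate held 13 barcodes and was left out. The late spermatocyte gate raised 5 of its 9 markers, and the later round spermatid gate 6 of 11, to at least 2 times their mean over the other classes, so these 2 names rest on fewer markers than the others. The macrophage gate also had the B cell genes Igkc and Ighm among its leading genes. In all, 73 barcode sequences occurred under both marks. Levels are in CPM, the scaled share of a gene's UMIs among all UMIs of the class. Ranges in parentheses are exact 95% intervals (Poisson for levels, conditional binomial for ratios) and cover counting error only.

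Free RNA from lysed cells can enter droplets along with the RNA of a cell. Protamine and transition protein transcripts, which belong to elongating spermatids, put its share at 32.2% and 33.2% of UMIs in the spermatogonial gate when the profile of ungated barcodes under 6000 UMIs stood for free RNA. That share was 26.7% and 24.9% in leptotene-zygotene, 12.2% and 13.6% in pachytene, and 10.5% and 11.5% in late spermatocytes. In the Sertoli gate it was 99.8% and 100.0%, so its protamine share matched that of the ungated barcodes. In the Leydig gate it was 90.3% and 122.7%, and a share above 100% shows that the estimate is rough. The profile of all barcodes put the share at 22.3% and 22.1% in spermatogonia and 69.2% and 66.7% in the Sertoli gate. For kinesins abundant in spermatids, levels in earlier classes are also given after subtraction with the ungated profile. They are given where they lie 1.5-fold or more from a level given as measured under either mark. Spermatids themselves were not subtracted. Whether the ungated barcodes hold free RNA alone or also cells was not tested, and every level after subtraction rests on that choice. The barcode with the fewest UMIs held 3924 under mark 1 and 3529 under mark 2. A fall in CPM from class to class is a fall in share of the class's UMIs, since RNA per cell also differs between classes.

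All 36 members had at least 1 UMI, 489465 in all. Of these, 27 reached 20 CPM under each mark in at least 1 class and are described in full, and 9 did not. The level of the 27 varied at least 2-fold over the 8 germ classes for 27, at least 5-fold for 23 and at least 10-fold for 18, from the pooled UMIs of both marks. Each of the 27 was kept for its level in at least 1 class, a choice that favours genes with a wide range. A germ class held the highest level for 25 of the 27, the exceptions being Kif21a, highest in the Sertoli gate, and Kif21b, highest in the T or NK gate from 14 UMIs, with an interval that overlaps that of Tnp1-low elongating spermatids. Among germ classes alone, spermatogonia held the highest level of 14 members, and the other 13 were spread over all 7 later classes. The interval of the highest germ class did not overlap that of the next for 22 of the 27. No share of all genes is given for these counts of range, highest class and overlap, so they describe the 27 alone. The family as a whole made up 1979 and 1951 CPM of spermatogonial UMIs, 1351 and 1276 CPM in pachytene, 1812 and 1699 CPM in later round spermatids and 1296 and 1202 CPM in Tnp1-low elongating spermatids. The sum therefore moved far less than its parts, because different members supplied it in different classes.

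**Figure D1:**
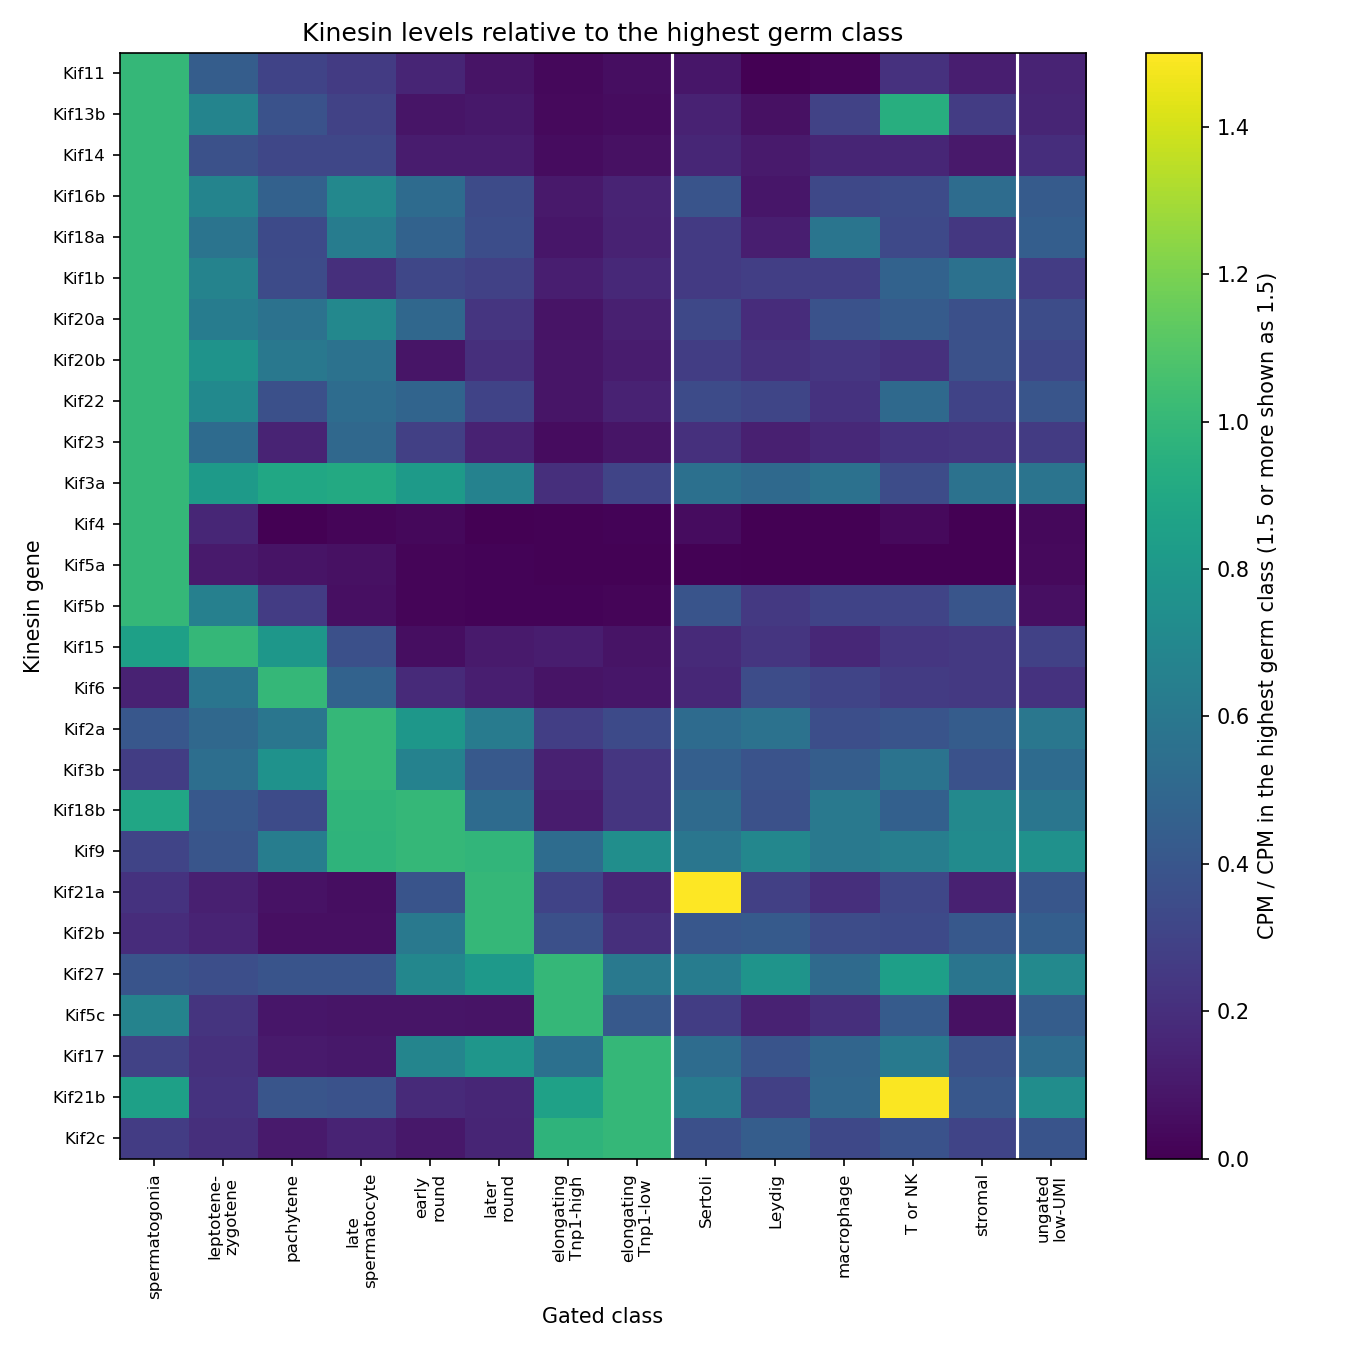
Level of each of the 27 kinesins described in full (vertical axis) in each gated class (horizontal axis), as CPM over both marks divided by that gene's CPM in its highest germ class, with values of 1.5 or more shown as 1.5. The first block of 14 genes is brightest in spermatogonia. Among germ classes the brightest cells of the remaining 13 genes step through the 7 later ones. Kif21a is brighter still in the Sertoli gate and Kif21b in the T or NK gate.

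A gene was called between neighbouring classes where each mark showed a ratio of 2-fold or more, both pointing the same way, and where the class with more of it had no fewer than 20 CPM and 20 UMIs under each mark. From spermatogonia to leptotene-zygotene, 0 of 34 measured members were higher and 3 were lower (Kif14, Kif5a and Kif4), where 6.52% and 9.25% of all measured genes were called higher and lower. Rescaling to the median gene gave the same 0 and 3, against 7.52% and 8.55%. Subtraction of free RNA gave 3 higher (Kif3b, Kif9 and Kif6) and 8 lower (Kif14, Kif5c, Kif23, Kif5a, Kif1c, Kif26a, Kif11 and Kif4), against 11.2% and 13.6%. From leptotene-zygotene to pachytene, 0 of 33 were higher and 3 lower (Kif23, Kif2b and Kif5b), against 2.19% and 5.55% of all genes. After subtraction Kif2b was no longer called, because its leptotene-zygotene level under mark 1, 19.1 CPM, lay under the 20 CPM floor. Its fall was then 11.1-fold and 4.42-fold. From pachytene to late spermatocytes, 2 of 33 were higher (Kif23 and Kif18b) and 3 lower (Kif15, Kif6 and Kif5b), against 3.19% and 5.87%. From late spermatocytes to round spermatids, 2 of 33 were higher (Kif17 and Kif2b) and 3 lower (Kif23, Kif15 and Kif20b), against 9.89% and 9.59%. From round to elongating spermatids, 2 of 33 were higher (Kif5c and Kif2c) and 7 lower (Kif3b, Kif1b, Kif23, Kif3a, Kif2b, Kif2a and Kif20a), against 3.8% and 17.8%. Over the 5 steps the share of measured members called higher was between 0% and 6.06%, and the share called lower between 8.82% and 21.2%, beside 2.19% to 9.89% and 5.55% to 17.8% of all genes.

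The median gene also moved. Over genes that had 50 or more UMIs in each of the classes compared, the median log2 ratio was -0.57 and -0.51 from late spermatocytes to round spermatids and -1.02 and -1.09 from round to elongating spermatids. For the members with that many UMIs it was -0.81 and -0.65 at the first of these steps and -1.21 and -1.21 at the second. Rescaled to the median gene, the last step had 4 members higher (Kif21b, Kif5c, Kif2c and Kif27) and 0 lower, against 8.58% and 5.7% of all genes. The 7 falls at that step thus did not pass the 2-fold rule relative to the median gene. At the step before it, rescaling gave 3 members higher (Kif17, Kif2b and Kif27) and 2 lower (Kif15 and Kif20b), against 13.7% and 5.46%. From pachytene to late spermatocytes rescaling left 2 higher and 1 lower (Kif5b), against 4.6% and 4.51%, and from leptotene-zygotene to pachytene 0 higher and 1 lower (Kif23), against 3.59% and 3.62%.

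On the CPM scale, members of kinesin-13, the family of microtubule depolymerases, peaked one after another. Kif2a, which acts at spindle poles and in interphase cells, lies at chr13:106958996-107022126 on the minus strand (GRCm38, GENCODE). It stood at 203 and 209 CPM in spermatogonia, 261 and 251 CPM in leptotene-zygotene and 313 and 281 CPM in pachytene. Its highest level was 509.8 (497 to 523) and 501 (486 to 516) CPM in late spermatocytes, followed by 418 and 392 CPM in early round, 317 and 314 CPM in later round and 146 and 136 CPM in Tnp1-high elongating spermatids. Kif2a was thus present in every germ class, within 3.59-fold between its highest and lowest. Over round spermatids joined, Kif2a stood at 365 and 361 CPM. The median gene also fell from late spermatocytes to round spermatids, by a median log2 ratio of -0.57 and -0.51. The Kif2a peak is therefore one of CPM and was not shown relative to the median gene. Dimt1 overlaps the 3′ end of Kif2a on the other strand, and whether counting used strand is not stated, so reads of the 2 genes cannot be told apart there.

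Kif2b, whose product acts at kinetochores and centrosomes in mitotic cells, spans chr11:91575315-91577558 on the minus strand. It was low in late spermatocytes at 42.5 (38.9 to 46.2) and 35.3 (31.4 to 39.4) CPM, then 386 (377 to 396) and 373 (366 to 380.4) CPM in the early round gate and 658 (647 to 671) and 587 (576 to 599) CPM in the later one. The step from late spermatocytes to round spermatids was 12.4-fold (11.4 to 13.6) and 12.9-fold (11.6 to 14.5). In elongating spermatids it was 276 and 182 CPM in the Tnp1-high and 136 and 115 CPM in the Tnp1-low gate, 2.24-fold (2.18 to 2.29) and 2.83-fold (2.75 to 2.901) lower than in round spermatids, a fall that did not remain after rescaling. Levels in earlier classes moved with the free RNA share. Kif2b was measured at 121 and 113 CPM in spermatogonia and 93.6 and 89.3 CPM in leptotene-zygotene, and at 36.6 and 37.9 CPM and 19.1 and 31.3 CPM after subtraction. In pachytene the measured 37.8 and 41.8 CPM became 1.72 and 7.06 CPM, and in late spermatocytes the level became 12.3 and 5.75 CPM. After subtraction the step to round spermatids was 42.9-fold and 79.4-fold, so its size depends on the subtraction. Its direction was not tested this way, since only the late spermatocyte level was lowered and round spermatids were left as measured.

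Kif2c, also called MCAK, corrects kinetochore attachments at mitotic centromeres, and lies at chr4:117159639-117182639 on the minus strand. Its spermatogonial level was 95.9 (83.8 to 109) and 114 (101 to 129.6) CPM, and it stood at 41.3 and 45.7 CPM in pachytene and 58.7 and 56.9 CPM in late spermatocytes. The pachytene level was 25.5 and 29.5 CPM after subtraction. It was 39.7 and 35.4 CPM in early round and 64.9 and 56.1 CPM in later round spermatids. In the Tnp1-high elongating gate it reached 389 (382 to 396) and 374 (367 to 380.2) CPM, and in the Tnp1-low gate 404 (393 to 415) and 381 (371 to 391) CPM. The step from round to elongating spermatids was 7.44-fold (7.09 to 7.81) and 8.65-fold (8.25 to 9.08), upward where the median gene fell. Per barcode, the 3 genes and Kif24 together gave 31.9 and 26.5 UMIs in late spermatocytes, 34.7 and 28.5 in later round and 15.02 and 11.1 in Tnp1-high elongating spermatids. Kinesin-13 supplied 1043 and 961 CPM of the family's 1812 and 1699 CPM in later round spermatids, against 435 and 449 CPM of 1979 and 1951 CPM in spermatogonia. The other 32 members fell over the same span from 1544 and 1501 CPM to 769.5 and 738 CPM.

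**Figure D2:**
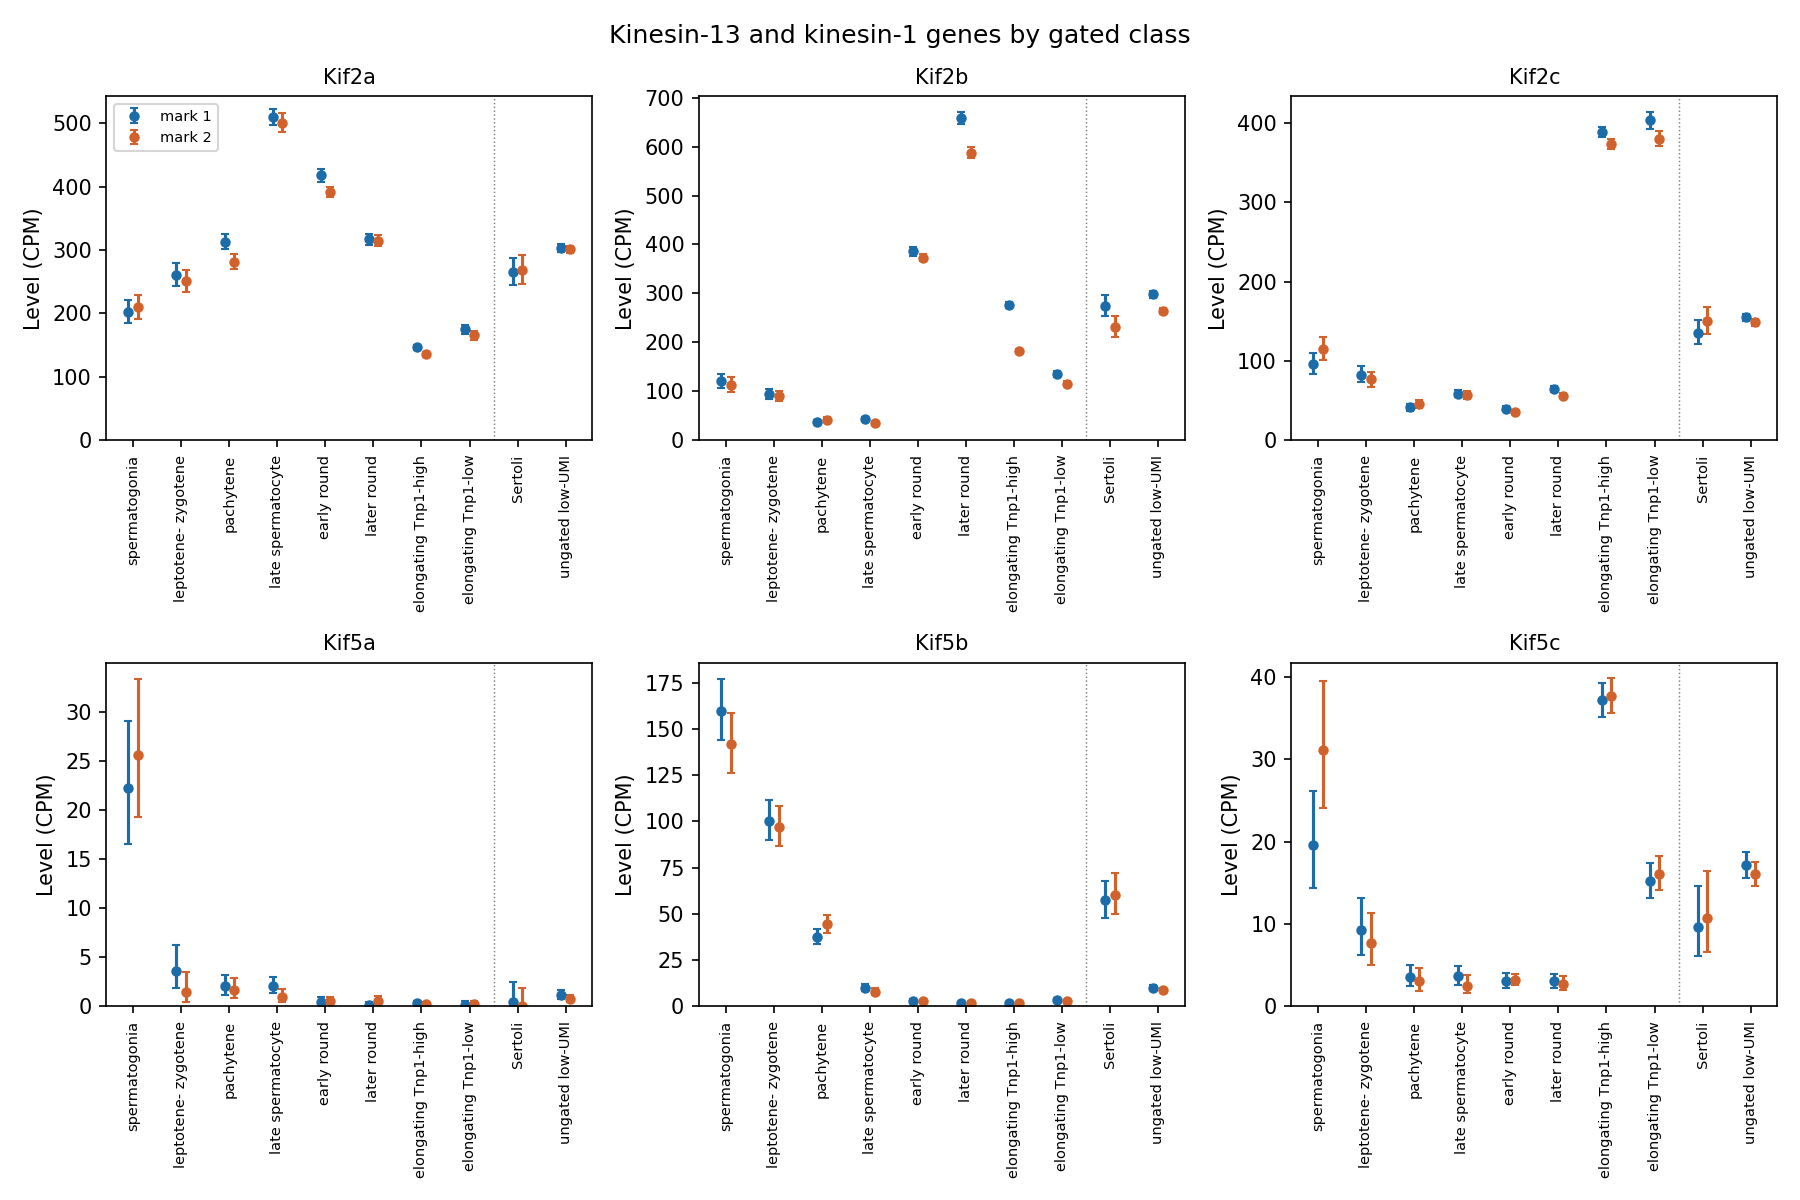
Levels in CPM (vertical axes) of the kinesin-13 genes Kif2a, Kif2b and Kif2c and the kinesin-1 genes Kif5a, Kif5b and Kif5c in 8 germ gates, the Sertoli gate and ungated barcodes under 6000 UMIs (horizontal axes), with points for marks 1 and 2 and bars for exact 95% Poisson intervals. Kif2a peaks in late spermatocytes, Kif2b in later round and Kif2c in elongating spermatids, while Kif5b declines from spermatogonia and Kif5c is high in spermatogonia and again in Tnp1-high elongating spermatids.

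Kinesin-1, the conventional cargo motor built of 2 heavy chains and 2 light chains, has 3 heavy chain genes. Kif5b, the heavy chain found in most tissues, had 159.9 (144 to 177) and 142 (126 to 159) CPM in spermatogonia and 100.5 and 97.03 CPM in leptotene-zygotene. It then fell to 37.5 and 44.3 CPM in pachytene, 2.68-fold (2.298 to 3.13) and 2.19-fold (1.87 to 2.56) lower, and to 10.03 and 7.898 CPM in late spermatocytes, 3.74-fold (3.03 to 4.63) and 5.61-fold (4.32 to 7.39) lower again. In round spermatids it was at 2.89 and 2.96 CPM in the early and 1.75 and 1.94 CPM in the later gate. Of the 2 falls, the second also passed after rescaling to the median gene. Kif5a, the heavy chain best known from neurons, stood at 22.2 and 25.6 CPM in spermatogonia (52 and 55 UMIs). In leptotene-zygotene it was 3.58 and 1.49 CPM, 6.199-fold (3.27 to 12.8) and 17.2-fold (6.94 to 55.03) lower, and from early round spermatids on it was under 1 CPM.

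Kif5c, likewise best known from neurons, lies at chr2:49619298-49774778 on the plus strand and was the one heavy chain with a second rise. Spermatogonia had 19.6 (14.4 to 26.2) and 31.2 (24.1 to 39.6) CPM, a level 1.5-fold or more apart between the marks. It was 3.599 and 3.05 CPM in pachytene, 3.64 and 2.52 CPM in late spermatocytes and 3.07 and 3.19 CPM in early round spermatids. Subtraction left 1.72 and 1.004 CPM in pachytene and 2.05 and 0.766 CPM in late spermatocytes. Tnp1-high elongating spermatids had 37.2 (35.1 to 39.3) and 37.7 (35.7 to 39.8) CPM, 12.2-fold (9.31 to 16.4) and 13.7-fold (10.2 to 18.7) above later round spermatids at 3.04 and 2.76 CPM. In the Tnp1-low gate it was 15.2 and 16.1 CPM, 2.45-fold (2.11 to 2.85) and 2.35-fold (2.04 to 2.71) below the Tnp1-high gate. It was the 1 of 32 measured members lower between these 2 elongating gates, where 2.27% of all genes were lower and 0.238% higher, and 0 members were higher. After rescaling at that step Kif2b was lower as well, making 2 of 32 against 4.05% of all genes. At the entry to the Tnp1-high gate from later round spermatids, 2 of 32 members were higher (Kif5c and Kif2c) and 6 lower, against 3.81% and 17.7%. Rescaling made these 4 higher (with Kif21b and Kif27) and 0 lower, against 8.83% and 6.37%.

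Among partners of kinesin-1, the light chain gene Klc3, known to occur in spermatids, moved at the same step. Klc3 was 3.97 and 3.73 CPM in round and 58.7 and 55.9 CPM in elongating spermatids, 14.8-fold (12.5 to 17.7) and 14.97-fold (12.8 to 17.6). Klc1, a light chain of most tissues, had 33.7 and 28.4 CPM in spermatogonia and 0.705 and 1.12 CPM in round spermatids. Of 11 measured light chains, accessory proteins and adaptors, 1 was higher (Klc3) and 1 lower (Kif1bp) from round to elongating spermatids, against 3.8% and 17.8% of all genes, and after rescaling 1 and 0, against 8.58% and 5.7%.

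Promoters of the members were searched for 4 motifs in the 200 bases before each RefSeq start (GRCm38.p6), since members moved at shared steps. Of the 36 members, 30 matched an entry, with 34 entries among them, and for 28 of the 34 the bases just after the start lie in a GENCODE transcript of the gene. The cAMP response element TGACGTCA, the site bound by CREB and by the spermatid regulator CREM, reads the same on both strands. It occurred in 2.12% of the 18445 promoters of genes in the table and in 2 of the 34 member entries. Those were Kif5c, whose element begins 26 bases before the start, and Kif17, whose element begins 86 bases before a RefSeq start inside the GENCODE gene span. They are shown because both genes rise in spermatids, Kif17 in round and Kif5c in elongating ones, and capitals mark the element. The other members called higher at those steps, Kif2b in round and Kif2c in elongating spermatids, have entries without the element. A link between the element and the rise was not tested. The Kif5c window is chr2:49619086-49619285 on the plus strand, and 30 bases are given for Kif17 at chr4:138262154-138262183 on the plus strand.
Kif5c: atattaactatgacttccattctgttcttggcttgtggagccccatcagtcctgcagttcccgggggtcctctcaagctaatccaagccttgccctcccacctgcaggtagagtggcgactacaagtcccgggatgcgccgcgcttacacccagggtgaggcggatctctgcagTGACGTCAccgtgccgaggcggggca
Kif17: attccgtcctgTGACGTCAcggaggttgcc
A match describes the letters and is not evidence of binding.

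Kinesin-2 drives anterograde intraflagellar transport as a heterotrimer of Kif3a, Kif3b or Kif3c, and the accessory protein Kifap3, with Kif17 as a homodimer. Kif3a (chr11:53567379-53601967, plus strand) varied little up to late spermatocytes, with 208 and 194 CPM in spermatogonia, 182 and 177 CPM in pachytene and 184 and 183 CPM in late spermatocytes. It was 132 and 135 CPM in later round spermatids and 40.3 and 41.3 CPM in the Tnp1-high elongating gate. Its partner Kif3b (chr2:153291413-153333390, plus strand) began lower, at 49.9 and 38.1 CPM, and stood at 90.03 and 87.5 CPM in leptotene-zygotene and 139 and 109 CPM in pachytene. The highest Kif3b level was 179 (172 to 187) and 142 (134 to 150.3) CPM in late spermatocytes, where the intervals of the marks do not overlap. It was 68.7 and 68.5 CPM in later round and 22.6 and 23.1 CPM in Tnp1-high elongating spermatids. From round to elongating spermatids Kif3a was 3.14-fold (2.98 to 3.298) and 3.27-fold (3.12 to 3.43) lower and Kif3b 3.23-fold (3.03 to 3.45) and 3.32-fold (3.12 to 3.54) lower, and neither fall passed after rescaling. Kif3a changed by less than 2-fold from spermatogonia to late spermatocytes, and Kif3b was higher in each following class under both marks over that span without meeting the size rule at any single step as measured. After subtraction Kif3b was 30.3 and 15.8 CPM in spermatogonia and 89.4 and 88.5 CPM in leptotene-zygotene, 2.95-fold and 5.59-fold higher, which met the rule. Kif3c, the alternative partner, stayed at 2.56 and 3.26 CPM in spermatogonia and below that in most later classes.

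Kif17, known in spermatids for carrying the transcriptional coactivator Fhl5 out of the nucleus, lies at chr4:138250435-138301967 on the plus strand. It stood at 37.5 and 35.8 CPM in spermatogonia, 12.9 and 13.4 CPM in pachytene and 12.7 (10.8 to 14.8) and 10.5 (8.49 to 12.9) CPM in late spermatocytes. After subtraction these were 20.6 and 23.3 CPM, 4.67 and 6.07 CPM and 5.63 and 4.09 CPM. Early round spermatids had 88.3 (83.8 to 93.04) and 83.2 (79.8 to 86.8) CPM and later round spermatids 101 and 94.4 CPM. The step from late spermatocytes to round spermatids was 7.49-fold (6.38 to 8.85) and 8.32-fold (6.76 to 10.3), and 16.9-fold and 21.4-fold after subtraction. In elongating spermatids it was 71.01 and 66.4 CPM in the Tnp1-high and 135 (129 to 142) and 115 (109.8 to 121) CPM in the Tnp1-low gate. Kif17 therefore has its sharpest change at the end of meiosis, at the same step as Kif2b, and it was not called at the step to elongating spermatids, where Kif3a and Kif3b were lower.

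Kifap3, the accessory subunit, rose with Kif17 at that step, from 94.6 and 96.4 CPM to 359 and 338 CPM, 3.79-fold (3.57 to 4.03) and 3.503-fold (3.27 to 3.76). Kif1bp, a protein that binds motor domains of several kinesins and keeps them off microtubules, rose from 19.2 and 21.1 CPM to 106 and 113 CPM, 5.53-fold (4.85 to 6.33) and 5.39-fold (4.65 to 6.28). Both passed after rescaling too. The intraflagellar transport genes, the train subunits that kinesin-2 carries, moved as a list at other steps. From spermatogonia to leptotene-zygotene 18 of 25 were higher and 0 lower, where 6.52% and 9.25% of all genes were, with a median log2 ratio of 1.42 and 1.36, against -0.07 and -0.11 for the median gene. Ift88 was among them, at 38.8 and 34.9 CPM and then 168 and 158 CPM. Over that step 0 kinesin-2 genes were called as measured and 1, Kif3b, after subtraction. From round to elongating spermatids 20 of 25 were lower and 1 higher, where 17.8% and 3.8% of all genes were, and after rescaling 4 lower and 1 higher, against 5.7% and 8.58%. The 1 that rose was Ift172, from 138 and 124 CPM to 913 and 966 CPM, 6.59-fold (6.39 to 6.79) and 7.81-fold (7.598 to 8.04).

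**Figure D3:**
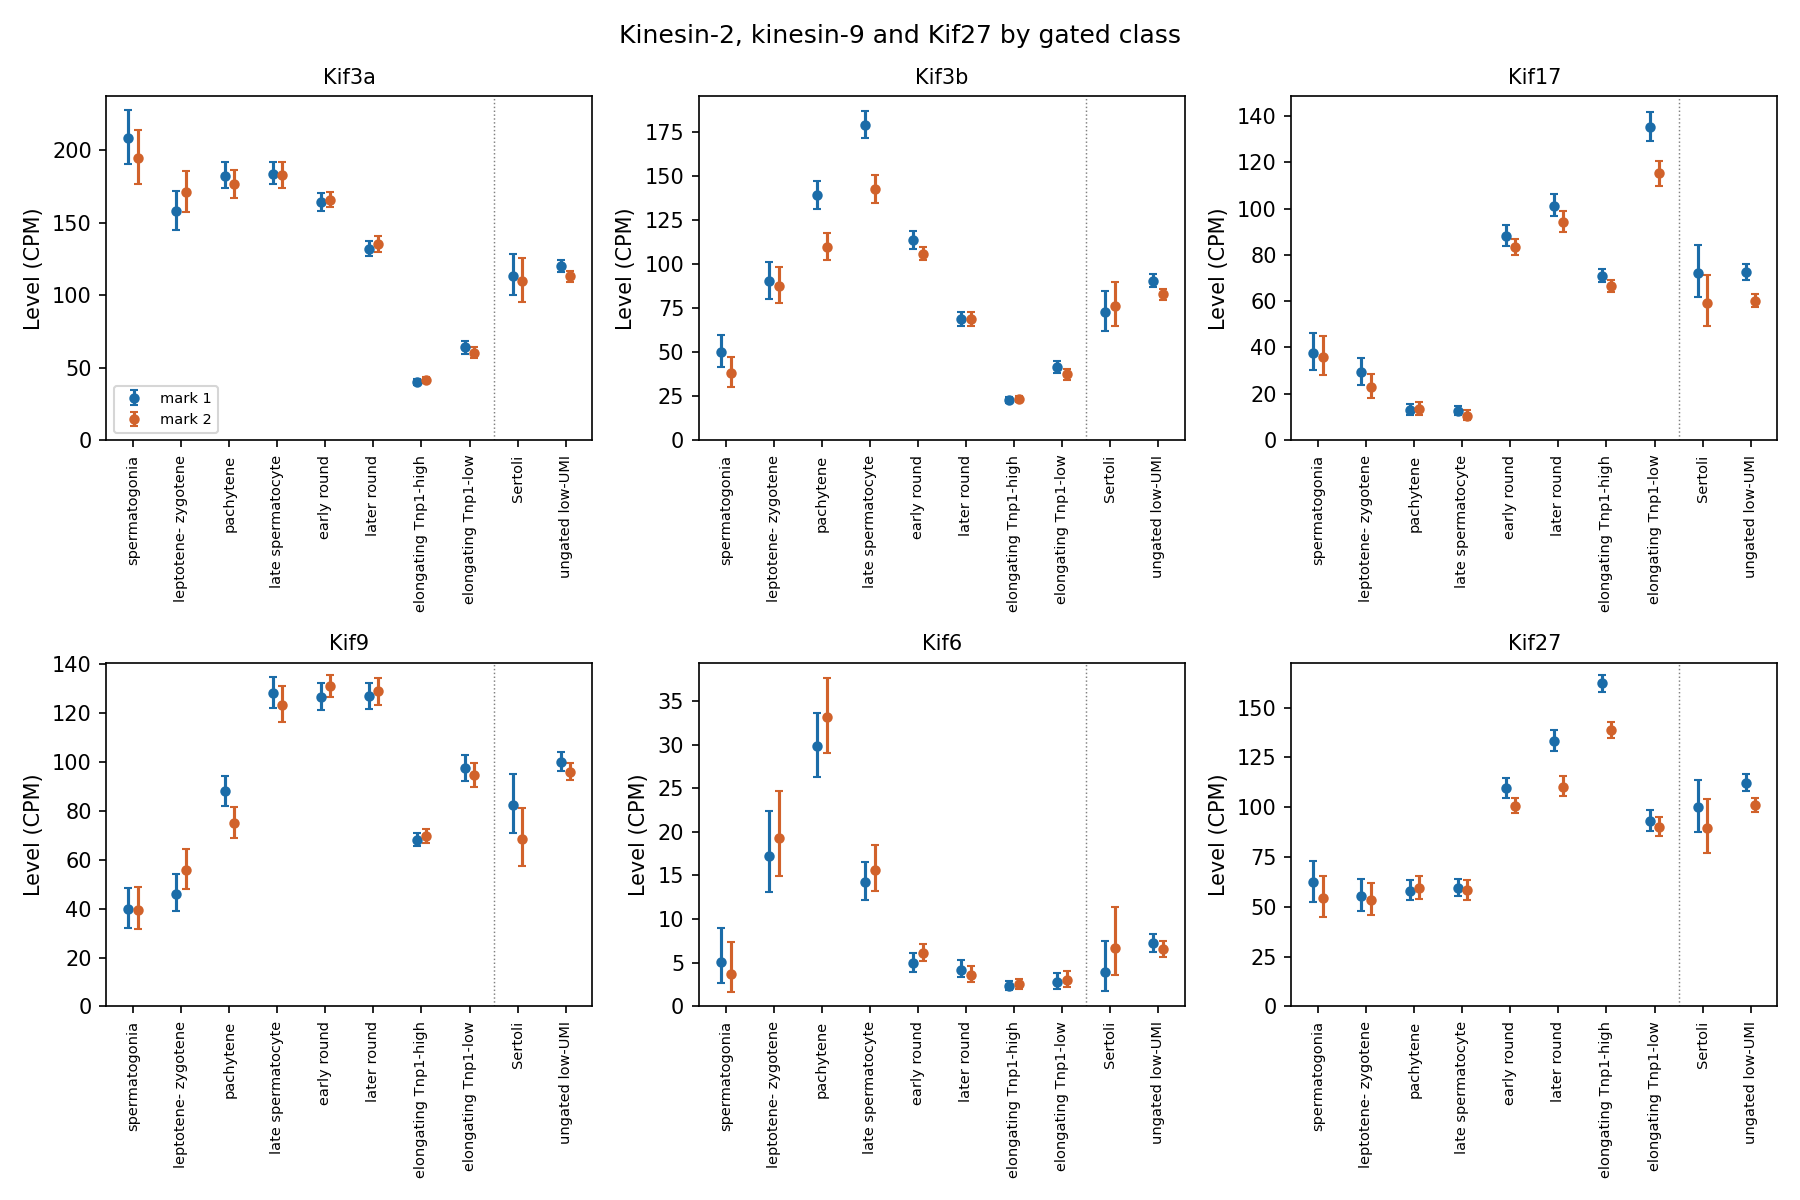
Levels in CPM (vertical axes) of the kinesin-2 genes Kif3a, Kif3b and Kif17, the kinesin-9 genes Kif9 and Kif6, and Kif27 in 8 germ gates, the Sertoli gate and ungated barcodes (horizontal axes), with points for marks 1 and 2 and bars for exact 95% Poisson intervals. The highest germ cell points lie in late spermatocytes for Kif3b, in pachytene for Kif6 and in elongating spermatids for Kif17 and Kif27.

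Kinesin-9 holds Kif9 and Kif6, which are tied to motile cilia and the sperm flagellum. Kif9 (chr9:110476958-110525179, plus strand) stood at 39.7 and 39.5 CPM in spermatogonia, 88.1 and 75.1 CPM in pachytene and 128 and 124 CPM in late spermatocytes. It held that level in round spermatids, at 127 and 131 CPM in the early and 127 and 129 CPM in the later gate, and the intervals of its 2 highest germ classes overlapped. After subtraction its spermatogonial level was 10.8 and 11.3 CPM, below the 39.7 and 39.5 CPM measured. Kif6 (chr17:49615136-49909847, plus strand) had a narrower course. It was 5.12 and 3.72 CPM in spermatogonia, 17.3 and 19.3 CPM in leptotene-zygotene and 29.8 (26.3 to 33.6) and 33.1 (29.05 to 37.6) CPM in pachytene. In late spermatocytes it was 14.2 and 15.7 CPM, 2.09-fold (1.72 to 2.55) and 2.11-fold (1.704 to 2.62) lower, a fall not called after rescaling, and in round spermatids it was under 7 CPM. The 2 genes of kinesin-9 thus differed in course, Kif6 highest in pachytene and Kif9 running on into spermatids.

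Kif27, a kinesin-4 relative of the Hedgehog regulator Kif7 that is tied to motile cilia, lies at chr13:58287502-58359122 on the minus strand. It was 62.3 and 54.4 CPM in spermatogonia, 58.2 and 59.6 CPM in pachytene and 59.6 and 58.3 CPM in late spermatocytes, and 37.98 and 30.9 CPM in spermatogonia after subtraction. Round spermatids had 109.7 and 101 CPM in the early and 133 and 110.4 CPM in the later gate, and the Tnp1-high elongating gate 162 (158 to 166) and 139 (135 to 143) CPM. It was 93.2 and 90.1 CPM in the Tnp1-low gate. Its measured range over germ classes was the narrowest of the 27, at 2.76-fold, and after subtraction it was 4.35-fold, against 3.76-fold for Kif2a. On the plain scale no step of Kif27 met the size rule, and relative to the median gene it was higher at both spermatid steps. Gm26555 overlaps its 3′ end on the other strand and the 2 cannot be told apart there.

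The 11 spindle kinesins listed for division (Kif2c, Kif4, Kif11, Kif14, Kif15, Kif18a, Kif18b, Kif20a, Kif20b, Kif22 and Kif23) together made up 785 and 793 CPM in spermatogonia. They made up 517 and 504 CPM in leptotene-zygotene, 339 and 335 CPM in pachytene and 387 and 376 CPM in late spermatocytes. In early round spermatids the sum was 203 and 202 CPM, and the later 441 and 420.3 CPM in Tnp1-high elongating spermatids was for the most part Kif2c alone. Per barcode, spermatogonia had 9.95 and 9.41 and late spermatocytes 19.9 and 16.6 of these UMIs; the median barcode held 11598 and 10996 UMIs in spermatogonia and 45518 and 38525.5 in late spermatocytes.

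Kif11, or Eg5, slides the poles of the bipolar spindle apart. Kif11 had 112 (98.6 to 126) and 96.7 (84.04 to 111) CPM in spermatogonia, 43.2 and 48.8 CPM in leptotene-zygotene and 28.5 and 24.95 CPM in late spermatocytes. Round spermatids had 15.5 and 16.3 CPM in the early and 7.49 and 8.87 CPM in the later gate. Kif15, a kinesin-12 that can share the work of Kif11, had another course: 82.7 (71.5 to 95.2) and 75.8 (64.6 to 88.4) CPM in spermatogonia, 95.4 (85.2 to 106) and 90.8 (80.9 to 102) CPM in leptotene-zygotene and 77.4 and 69.6 CPM in pachytene. It fell to 35.3 and 32.6 CPM in late spermatocytes, 2.19-fold (1.94 to 2.48) and 2.13-fold (1.84 to 2.47), which was not called after rescaling, and stood at 4.79 and 5.17 CPM in early round spermatids. The intervals of Kif15 in its 2 highest classes overlapped, so spermatogonia and leptotene-zygotene are not ordered for it.

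The kinesin-6 genes act at the central spindle and in cytokinesis. Kif23, or MKLP1, the motor of centralspindlin, was 102 (89.8 to 116) and 100.0 (87.1 to 114) CPM in spermatogonia and 50.1 and 55.95 CPM in leptotene-zygotene. It dropped to 15.2 and 14.96 CPM in pachytene, 3.298-fold (2.61 to 4.17) and 3.74-fold (2.94 to 4.78) lower, and returned to 47.1 and 57.6 CPM in late spermatocytes, 3.0996-fold (2.57 to 3.77) and 3.85-fold (3.12 to 4.78). Kif23 was then 27.6 and 29.3 CPM in early round and 4.69 and 4.999 CPM in Tnp1-high elongating spermatids, so its level was lower in pachytene than in the classes on either side. Kif20a, or MKLP2, which carries the chromosome passenger complex, varied less through meiosis, with 69.5 and 72.6 CPM in spermatogonia, 40.6 and 39.6 CPM in pachytene and 51.3 and 47.8 CPM in late spermatocytes. Cdc23 overlaps the 3′ end of Kif20a on the other strand, and the 2 cannot be told apart there. Kif20b, or MPP1, had 135 (121 to 151) and 157 (140.4 to 174) CPM in spermatogonia, 88.5 and 85.6 CPM in pachytene and 87.7 and 73.7 CPM in late spermatocytes.

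The 2 kinesin-6 paralogues moved in opposite directions between the round spermatid gates. Kif20a was 34.4 and 36.1 CPM in early and 16.3 and 16.5 CPM in later round spermatids, 2.11-fold (1.83 to 2.44) and 2.19-fold (1.92 to 2.51) lower. Kif20b was 11.1 and 13.1 CPM in early and 32.1 and 27.03 CPM in later round spermatids, 2.89-fold (2.44 to 3.43) and 2.07-fold (1.79 to 2.38) higher. They were the only 2 of 32 measured members called at that step, 1 in each direction, where 2.73% of all genes were higher and 1.07% lower. After rescaling, Kif20b and Kif21a were higher and Kif20a was no longer called, against 4.09% and 0.457% of all genes. Kif20b then stood at 12.9 and 12.3 CPM in Tnp1-high elongating spermatids, 2.48-fold (2.18 to 2.81) and 2.196-fold (1.92 to 2.51) lower than in later round ones, which was not called after rescaling.

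Among the remaining spindle kinesins, Kif4 and Kif14 belonged to spermatogonia. Kif4 is a chromokinesin that compacts chromosomes with condensin and acts at the midzone, and it lies at X:100625737-100727214, the one member of the 36 on the X chromosome. Kif4 had 59.7 (50.2 to 70.4) and 43.3 (34.9 to 52.99) CPM in spermatogonia, 10.4 and 6.25 CPM in leptotene-zygotene and 0.112 (0.00285 to 0.627) and 0.139 (0.00351 to 0.772) CPM in pachytene, the last from 1 and 1 UMIs. The first step was 5.72-fold (3.93 to 8.54) and 6.92-fold (4.27 to 11.7) downward. In late spermatocytes Kif4 was 1.21 and 0.687 CPM and in early round spermatids 2.21 and 1.1998 CPM. As background, most X-linked genes are transcriptionally silent in pachytene. Kif14, a kinesin-3 that works in cytokinesis, was 26.01 and 23.3 CPM in spermatogonia and 11.3 and 7.14 CPM in leptotene-zygotene, 2.296-fold (1.51 to 3.54) and 3.26-fold (1.96 to 5.54) lower. The 3 members lower at this step, Kif14, Kif5a and Kif4, also passed after rescaling.

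Kif18a and Kif18b are kinesin-8 motors that limit the length of spindle microtubules, and Kif22, or Kid, is a kinesin-10 that pushes chromosome arms. Kif18a was 41.8 and 43.3 CPM in spermatogonia, 14.96 and 13.7 CPM in pachytene, 26.04 and 27.7 CPM in late spermatocytes and 20.4 and 19.8 CPM in early round spermatids. Kif18b was 17.9 and 21.4 CPM, 7.99 and 6.93 CPM, 21.7 and 21.5 CPM and 21.99 and 22.01 CPM in the same 4 classes, and its rise into late spermatocytes was 2.71-fold (2.08 to 3.58) and 3.11-fold (2.26 to 4.33). Kif22 was 41.8 and 45.1 CPM in spermatogonia, 14.1 and 18.2 CPM in pachytene and 22.2 and 24.2 CPM in late spermatocytes. All 3 had a dip in pachytene under both marks, and only that of Kif18b met the size rule on its way up. Gm31749 overlaps the 3′ end of Kif22 on the other strand.

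**Figure D4:**
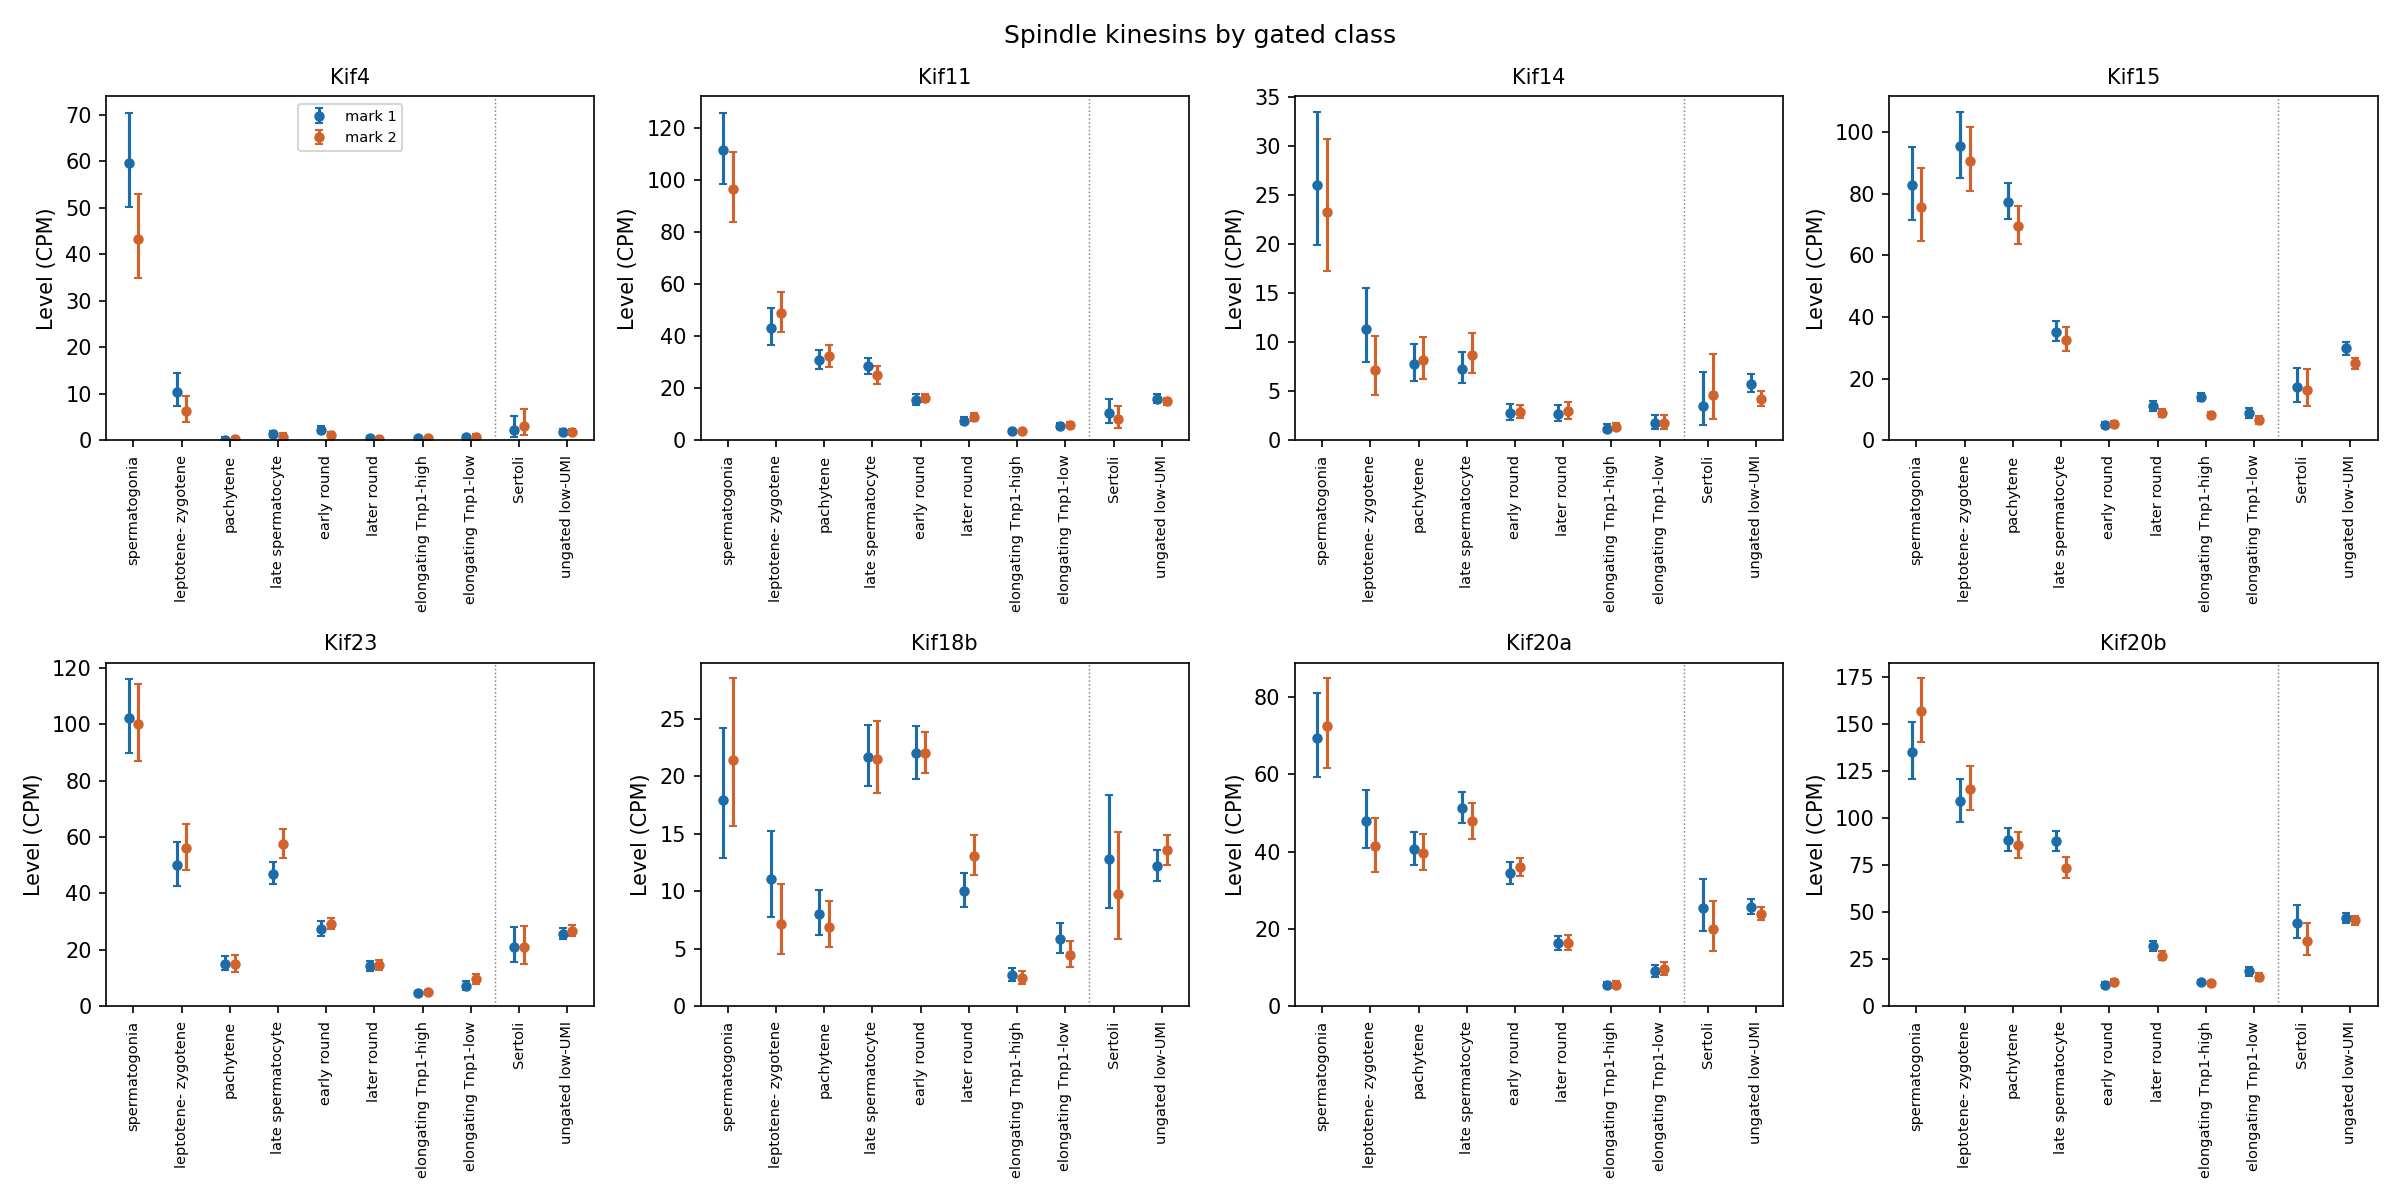
Levels in CPM (vertical axes) of 8 spindle kinesins in 8 germ gates, the Sertoli gate and ungated barcodes (horizontal axes), with points for marks 1 and 2 and bars for exact 95% Poisson intervals. Kif4, Kif11 and Kif14 are highest in spermatogonia, Kif15 stays high to pachytene, and Kif23 and Kif18b are higher in late spermatocytes than in pachytene.

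Partners of the spindle kinesins gave the wider setting. From pachytene to late spermatocytes 5 of 20 spindle partners were higher (Aurka, Aurkb, Incenp, Plk1 and Nusap1) and 2 lower, where 3.19% and 5.87% of all genes were. Plk1, a mitotic kinase that docks on Kif20a and other central spindle proteins, rose from 15.1 and 19.3 CPM to 107 and 127 CPM, 7.13-fold (5.96 to 8.58) and 6.57-fold (5.51 to 7.8995). The centromere kinesin gene Cenpe rose from 53.2 and 61.2 CPM to 163 and 154 CPM, 3.07-fold (2.77 to 3.398) and 2.52-fold (2.26 to 2.81). From late spermatocytes to round spermatids 12 of the 20 partners were lower and 0 higher, where 9.59% and 9.89% of all genes were, and after rescaling 8 lower and 1 higher, against 5.46% and 13.7%. Prc1, the bundler on which Kif4 and Kif14 act, was among them at 288 and 269 CPM and then 30.8 and 38.5 CPM. At that step 3 of the 11 spindle kinesins were lower (Kif15, Kif20b and Kif23) and 0 higher, and after rescaling 2 lower, beside the same shares of all genes.

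Cell cycle genes often carry a CCAAT box upstream of the cell cycle homology region (CHR, TTTGAA), which is bound by the DREAM and MuvB complexes. The CHR letters occurred on either strand in 9.60% of the 18445 promoters and in 4 of 10 entries of spindle kinesins (Kif11, Kif15, Kif22 and Kif2c). CCAAT occurred in 30.5% of promoters and in 6 of the 10. As examples, 2 spindle promoters with no annotated exon in the window are shown with these letters in capitals, TTCAAA and ATTGG being the reverse strand forms. Kif11, from chr19:37376182-37376381 on the plus strand, has a CCAAT box beginning 45 bases and a CHR 19 bases before the start. For the entries of Kif11 and Kif2c, the bases just after the start were not found in a GENCODE transcript of the gene. Kif18b, from chr11:102925125-102925324 on the minus strand, has CCAAT boxes at 53 and 30 bases and no CHR. Whether the letters go with the course of a gene was not tested, and 4 genes are given from pachytene to late spermatocytes. With both motifs, Kif22 went from 14.1 and 18.2 CPM to 22.2 and 24.2 CPM. Kif11, also with both, went from 30.8 and 32.3 CPM to 28.5 and 24.95 CPM. With CCAAT alone, Kif14 went from 7.76 and 8.17 CPM to 7.28 and 8.6996 CPM. Kif18b, also with CCAAT alone, went from 7.99 and 6.93 CPM to 21.7 and 21.5 CPM.
Kif11: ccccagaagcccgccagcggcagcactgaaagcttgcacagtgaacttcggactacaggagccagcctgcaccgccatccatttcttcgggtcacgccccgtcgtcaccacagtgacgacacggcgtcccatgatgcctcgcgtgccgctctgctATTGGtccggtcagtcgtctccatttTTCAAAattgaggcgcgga
Kif18b: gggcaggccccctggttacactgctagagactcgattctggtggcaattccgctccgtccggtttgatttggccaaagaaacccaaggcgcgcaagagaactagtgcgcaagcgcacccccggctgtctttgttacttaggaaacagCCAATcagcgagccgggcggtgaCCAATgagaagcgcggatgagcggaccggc
With 10 entries these shares describe the promoters and do not set the spindle genes apart. The motif GTTGCC, part of the X-box bound by RFX factors of ciliary genes, was in 9.32% of all promoters and in 7 of the 34 member entries, those of Kif3a, Kif3c, Kif9, Kif17, Kif18a, Kif23 and Kif24.

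Vesicle motors of kinesin-3 were mainly spermatogonial. Kif1b, which carries mitochondria and synaptic vesicle precursors in neurons, had 114 (101 to 128) and 118 (104 to 134) CPM in spermatogonia and 93.9 and 62.2 CPM in leptotene-zygotene. It was 23.05 and 23.9 CPM in late spermatocytes, 41.3 and 34.3 CPM in early round and 15.5 and 13.4 CPM in Tnp1-high elongating spermatids. Kif13b, which transports membrane cargo and binds Dlg1, was 39.7 and 37.7 CPM in spermatogonia, 12.2 and 10.5 CPM in late spermatocytes and 3.99 and 2.999 CPM in early round spermatids. Kif16b, a motor of early endosomes, was 28.1 and 30.7 CPM in spermatogonia, 16.6 and 9.84 CPM in pachytene, 21.2 and 19.6 CPM in late spermatocytes and 3.16 and 2.75 CPM in the Tnp1-high gate. Each of the 3 was highest in spermatogonia among germ classes, but Kif1b was higher in early round spermatids than in late spermatocytes, and Kif16b higher in late spermatocytes than in pachytene, under both marks. The one step called was that of Kif1b from round to elongating spermatids.

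The kinesin-4 genes Kif21a and Kif21b both restrain microtubule growth. Among the 27 members described in full, they were the 2 whose highest level lay in a somatic gate. Kif21a (chr15:90933276-91049948, minus strand) had 42.7 (34.7 to 52.1) and 46.6 (37.5 to 57.2) CPM in the Sertoli gate. Its ungated level was 7.58 and 7.64 CPM, so that the Sertoli gate was 5.64-fold (4.37 to 7.22) and 6.099-fold (4.73 to 7.801) higher. Among germ classes it was 4.26 and 4.19 CPM in spermatogonia, 1.29 and 0.687 CPM in late spermatocytes, 8.66 and 6.71 CPM in early round, 19.99 and 18.1 CPM in later round and 6.16 and 5.26 CPM in Tnp1-high elongating spermatids. Subtraction left 2.65 and 2.44 CPM in spermatogonia and 0.551 and 0 CPM in late spermatocytes. Kif21b (chr1:136131389-136177998, plus strand) had 28.8 and 27.5 CPM in the T or NK gate, from only 9 and 5 UMIs. It was 17.5 and 14.9 CPM in spermatogonia, 2.702 and 3.35 CPM in later round and 16.5 and 16.05 CPM in Tnp1-high elongating spermatids. Neither gene was called at a spermatid step on the plain scale, since neither reached 20 CPM under both marks in a spermatid class. The levels above still differ more than 2-fold from early to later round for Kif21a and from later round to Tnp1-high elongating for Kif21b. After rescaling Kif21a was higher from early to later round, and Kif21b higher from later round to Tnp1-high elongating spermatids.

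In the Sertoli gate, 2 of 33 measured members were higher than in ungated barcodes (Kif21a and Kif5b) and 0 lower, where 2.52% and 0.239% of all genes were higher and lower. Both passed after rescaling, against 2.84% and 0.15%. Kif5b was 57.3 (47.9 to 68.01) and 60.4 (50 to 72.3) CPM there and 10.2 and 8.87 CPM in ungated barcodes, 5.64-fold (4.54 to 6.99) and 6.81-fold (5.44 to 8.48). For spermatid genes the 2 kinds of barcode were alike, with Kif2b at 274 and 232 CPM in the Sertoli gate and 298 and 263 CPM in ungated barcodes, and Kif17 at 72.3 and 59.4 CPM and 72.5 and 60.3 CPM. These levels are not taken as expression in Sertoli cells, and whether they come from free RNA was not tested. Kif5b was also at 61.3 and 57.3 CPM in the stromal gate (14 and 9 UMIs) and 44.9 and 49.4 CPM in the T or NK gate (14 and 9 UMIs), classes in which it exceeds the ungated level. Kif13b was 35.3 and 38.4 CPM in the T or NK gate (11 and 7 UMIs) against 6.63 and 5.43 CPM in ungated barcodes. Counts of this size set no order among the small somatic classes.

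**Figure D5:**
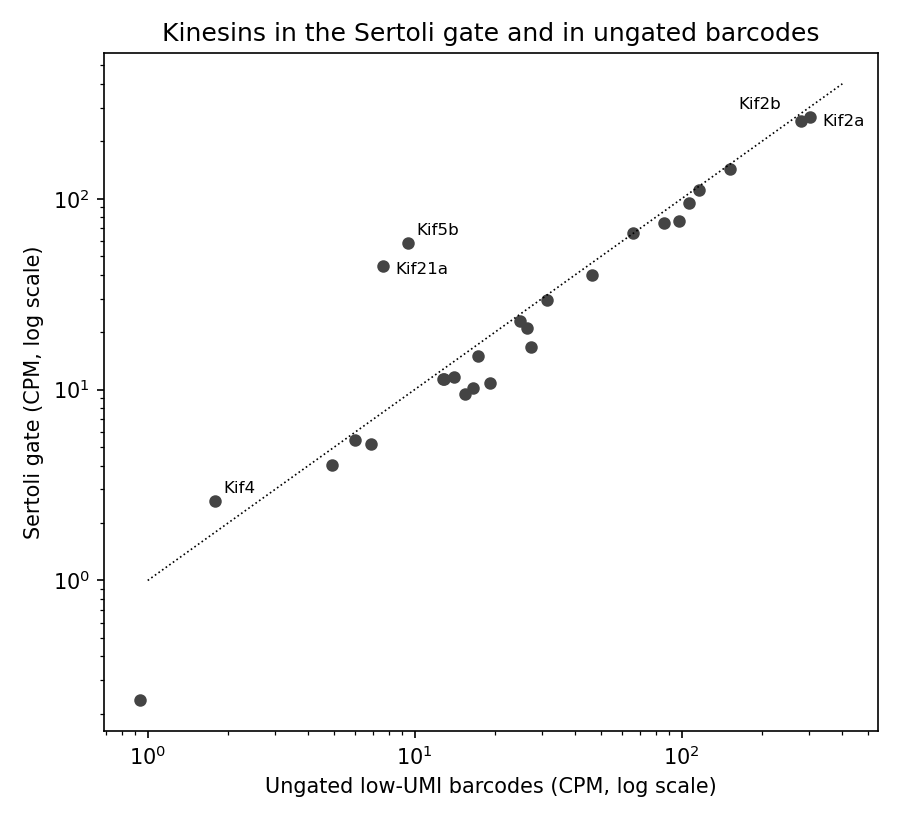
Level of each kinesin described in full in the Sertoli gate (vertical axis, CPM over both marks, log scale) against ungated barcodes under 6000 UMIs (horizontal axis, CPM, log scale), with the dotted line at equal levels. Kif21a and Kif5b lie well above the line and most other genes lie near it or below; the lowest point, left without a name, is Kif5a.

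The 9 members that did not reach 20 CPM under both marks in any class were Kif1a, Kif1c, Kif3c, Kif7, Kif13a, Kif19a, Kif24, Kif26a and Kif26b. Kif24, a kinesin-13 that restrains cilium formation, had its highest level in leptotene-zygotene, 26.5 and 17.9 CPM. Kif1c, which moves vesicles and messenger RNA, and Kif26a, an atypical kinesin-11 without motor activity, were highest in spermatogonia, at 20.04 and 13.95 CPM and 14.5 and 16.3 CPM. Kif7, which organises the ciliary tip for Hedgehog signalling, was 4.26 and 13.02 CPM there, from 10 and 28 UMIs, and Ticrr overlaps its 3′ end on the other strand. Kif19a, a kinesin-8 that sets the length of motile cilia, was 14.2 and 11.4 CPM in late spermatocytes and 1.72 and 1.99 CPM in early round spermatids. Kif1a, the synaptic vesicle motor of neurons, was 5.93 and 4.85 CPM in Tnp1-high elongating spermatids and 0.676 and 0.176 CPM in later round spermatids. Kif3c had 2.56 and 3.26 CPM in spermatogonia and 2.68 and 2.08 CPM in leptotene-zygotene, levels whose intervals overlap, and 1110002L01Rik overlaps its 3′ end on the other strand. Kif13a, a motor of recycling endosomes, and Kif26b had no germ class above 3 CPM under either mark. Over both marks Kif13a was highest in the stromal gate, at 10.4 (2.83 to 26.6) CPM. Kif26b was highest in the Sertoli gate, at 0.947 (0.258 to 2.43) CPM. For each gene this interval overlaps that of the next class.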

How the data were processed

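The authors deposited 1 table of raw counts, with genes in rows and barcodes in columns; its entries are whole numbers with a different total for each barcode. Cell Ranger 1.3.1, Seurat 3.2.2 and the build GRCm38 are named, without a role, in the submitters' processing notes. The authors' filter on barcodes and the strand used in counting are not given in the sources used here. Members, lists and settings were chosen with earlier results of these data known.

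Barcodes were gated on summed marker UMIs per 10000 UMIs, and a barcode had to pass exactly 1 gate. Thresholds, the early and later round split, the Tnp1 split and the 4 comparisons within spermatids and with the Sertoli gate were set after marker shares had been seen, with no kinesin among the markers. They were not changed after kinesin levels had been seen. Between 1 and 578 barcodes lay within 20% above the first threshold of a class with at least 50 barcodes; the elongating gates had the most. No doublet caller was run, and barcodes passing 2 or more gates were left out.

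UMIs were summed per class and mark and divided by the class total (CPM). A gene was measured with at least 20 UMIs over both classes. Named were all members, in full with at least 20 CPM in a class under each mark, and 2 to 4 partners of largest mean log2 ratio among those called. Klc1, Ift88, Prc1 and Cenpe were chosen after their values had been seen. Intervals are 95%. The planned comparison of genotypes could not be made. Scripts used Python 3.11.15, numpy 2.4.6, scipy 1.17.1 and matplotlib 3.10.9, and the calling step was tested on simulated counts. Kif12 and Kif28 have no row in the table used here. Kif16bos, antisense to Kif16b, is a row of its own, and reads of the 2 cannot be told apart without strand. Positions are from GENCODE and promoters from RefSeq.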

Additional observations from a re-analysis of the deposited data

How the results depend on the processing

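The counts of called members were recomputed under other thresholds, scalings and barcode sets. Shares of all genes are given above for rescaling and, at the first step, for subtraction with the ungated profile. The other counts have no such share beside them and show only how the members called depend on the setting. At 1.5-fold, higher and lower were 1 and 6 from spermatogonia to leptotene-zygotene, 1 and 8 from there to pachytene, 4 higher in late spermatocytes, and 6 lower in round spermatids. At 3-fold, 1 was lower in pachytene, 1 higher and 1 lower in late spermatocytes, and 4 lower in elongating spermatids. With a floor of 10 CPM, higher and lower were 1 and 7 at the first step, 6 lower in round spermatids and 13 lower in elongating spermatids. Rescaling by the median ratio gave 1 lower in pachytene, 1 lower in late spermatocytes, and 4 higher and 0 lower in elongating spermatids. Mean CPM over barcodes gave 1 higher and 5 lower in pachytene. Subtracting free RNA gave 1 higher and 5 lower at the first step with the profile of all barcodes, and 3 and 8 with the profile of ungated barcodes, an alternative chosen after seeing the data. Mark 1 alone gave 6 lower at the first step, 8 in pachytene and 5 in round spermatids; mark 2 alone gave 1 higher and 5 lower at the first step. Gate thresholds multiplied by 0.5 gave 1 lower in elongating spermatids, where 11741 barcodes then passed the Tnp1-low gate in place of 3189. The cause of these changes was not tested.

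The other recomputed counts stayed within 1.5 times the main count, among them those without the top 10% of barcodes by UMIs and without barcode sequences under both marks. Doubled thresholds left 0 barcodes in the pachytene and late spermatocyte gates and halved ones 5 in the late spermatocyte gate, so comparisons with these gates gave no value. Of the highest germ class levels, with round and elongating gates each joined, those of Kif11 and Kif4 (thresholds multiplied by 0.5) and of Kif21a in round spermatids (multiplied by 2) moved over 1.5-fold, and 0 did with mean CPM or with free RNA subtracted by the profile of all barcodes. Rescaled by each class's median ratio to round spermatids, 20 of these 27 levels moved over 1.5-fold, by the construction of that scale. No paired analysis was possible because the deposited table does not tie barcodes to genotypes and each genotype has 1 library. Depth limits the somatic gates most: 65 to 93 barcodes leave single-digit UMIs for many members.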

Other observations

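The 2 marks were set side by side within each class, as values only, since which library a mark stands for is not known. Genes with at least 20 UMIs under each mark differed at least 1.5-fold between marks in 2.95% of cases in late spermatocytes and 6.33% in Tnp1-high elongating spermatids, the lowest and highest shares among germ classes. Members that did so were most numerous in leptotene-zygotene, 5 of 25 (Kif14, Kif1b, Kif18b, Kif13b and Kif4), where 3.27% of all genes did. All 5 were higher under mark 1, with Kif1b at 93.9 (83.8 to 105) and 62.2 (54.1 to 71.2) CPM and Kif13b at 31.9 (26.1 to 38.5) and 20.5 (15.98 to 25.99) CPM. Kif14 (11.3 and 7.14 CPM), Kif18b (11.03 and 7.14 CPM) and Kif4 (10.4 and 6.25 CPM) had fewer UMIs behind them. In Tnp1-high elongating spermatids 3 of 28 members differed at least 1.5-fold (Kif15, Kif2b and Kif19a), with Kif2b at 276 (270.2 to 281) and 182 (177 to 186) CPM and Kif15 at 14.01 (12.8 to 15.3) and 8.13 (7.1996 to 9.14) CPM. The same 2 genes were at 136 and 115 CPM and 8.82 and 6.53 CPM in the Tnp1-low gate. In spermatogonia 1 of 28 members differed at least 1.5-fold, against 3.36% of all genes: Kif5c at 19.6 (14.4 to 26.2) and 31.2 (24.1 to 39.6) CPM. In pachytene 1 of 26 did so (Kif16b), against 5.12%, and in early round spermatids 1 of 29 (Kif4), against 3.28%. In late spermatocytes, later round spermatids, Tnp1-low elongating spermatids and the Sertoli gate 0 members did so.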
